A study of Mus musculus with 9 samples.

Results

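Cyclin-dependent kinase 1 (CDK1), its B-type cyclins and the proteins that switch it on and off were examined here at the transcript level in 9 single mouse oocytes. The genes were 10 chosen by symbol, Cdk1, Ccnb2, Ccnb3, Cks1b, Cks2, Wee2, Pkmyt1, Cdc25a, Cdc25b and Cdc25c, out of 19938 genes that had a row of their own on the array. They were chosen with earlier results of these data known, so the shares given beside them are a description and not a test. They had 12 rows, 1 for each gene and 2 more for Cks2. Cks2 is given by the row that was highest on average, and its other rows served as a check.

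The oocytes came from superovulated, unmated ICR females, an outbred strain, aged 2 months. They had received 10 IU of PMSG and 10 IU of hCG 46 hours later, and the cells were collected at metaphase II. All 9 oocytes share this strain, age and hormone treatment, and they differ by how the RNA was prepared before amplification. In 3 oocytes the cell was lysed directly in NuGEN buffer and the crude lysate was amplified, in 3 the RNA was purified with the Arcturus PicoPure kit, and in 3 with the Qiagen RNeasy Mini kit. The labels give 1 to 3 cells from each of 3 mice per condition without saying which, so some oocytes may share a mouse, and the p-values rest on the spread among these 9 cells alone. The design asks how the preparation affects what is read from 1 cell.

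CDK1 bound to cyclin B is the maturation-promoting factor that drives an oocyte out of prophase arrest and into the meiotic divisions, and its activity is held high while a mature egg waits at metaphase II. The kinase is kept off by inhibitory phosphorylation, which WEE2 and PKMYT1 add and CDC25 phosphatases remove. Small CKS proteins bind the kinase and help it recognise its substrates. A mature oocyte is transcriptionally silent, so the messages measured at metaphase II were made earlier, during oocyte growth, and stored.

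Expression values are the authors' normalized values, read as log2, so that a difference of 1 is a 2-fold change. Each array had a working background level, the 95th percentile of its 1244 olfactory, vomeronasal, trace amine and taste receptor genes, which lay between 7.19 and 7.48. It is not a detection p-value. Of 12 oocyte marker genes 11 had a row, and all 11, among them Gdf9, Bmp15, Zp3 and Nlrp5, lay above background on every array. Of the genes of other cell types, 1 in each list exceeded background on every array: Foxl2 of 11 cumulus and granulosa genes with a row, Cd3e of 4 blood and immune genes and Krt8 of 5 oviduct genes. Those never above background numbered 6, 2 and 2 in these lists. RNeasy Mini replicate 3 stood apart by its higher cumulus and granulosa genes, and the result on Cks2 is given below with and without it. Levels of different genes are not compared with each other, because each is read by its own probes.

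All 10 genes lay above background in all 9 oocytes, which was true of 43.1% of all genes. With the 99th percentile of the receptor genes as background the number was 8, since Cks2 passed on 8 arrays and Cdc25c on 5. The gene for cyclin B1, Ccnb1, is not analysed here because it had no row named for it alone.

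The promoter windows of 4 genes are shown so that Cks2, the gene that changed between preparations, can be set beside its relative Cks1b and the kinase and cyclin genes. They are RefSeq windows on GRCm38.p6, from 250 bases before to 50 bases after the start of the gene, written 5′ to 3′ on the gene's strand. Capitals mark 2 motifs searched on both strands: CCAAT, known as the binding element of NF-Y, and TTTGAA, the core of the cell cycle homology region found in many genes expressed late in the cell cycle. On the other strand the first motif reads ATTGG and the second TTCAAA. The windows are chr13:51644982-51645281 (plus strand) for Cks2, chr3:89418242-89418541 (minus strand) for Cks1b, chr10:69352863-69353162 (minus strand) for Cdk1 and chr9:70421505-70421804 (minus strand) for Ccnb2.
Cks2: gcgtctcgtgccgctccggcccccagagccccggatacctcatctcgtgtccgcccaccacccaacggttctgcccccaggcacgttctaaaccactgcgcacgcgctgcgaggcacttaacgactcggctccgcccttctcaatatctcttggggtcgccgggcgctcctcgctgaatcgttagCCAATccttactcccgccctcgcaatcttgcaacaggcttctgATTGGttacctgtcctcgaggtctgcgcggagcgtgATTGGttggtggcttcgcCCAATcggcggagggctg
Cks1b: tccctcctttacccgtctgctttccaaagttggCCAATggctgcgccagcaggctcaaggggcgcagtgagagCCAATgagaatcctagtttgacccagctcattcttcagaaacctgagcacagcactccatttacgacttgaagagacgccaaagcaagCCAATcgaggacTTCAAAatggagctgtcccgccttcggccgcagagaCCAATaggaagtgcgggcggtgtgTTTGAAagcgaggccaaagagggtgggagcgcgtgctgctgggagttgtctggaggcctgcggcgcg
Cdk1: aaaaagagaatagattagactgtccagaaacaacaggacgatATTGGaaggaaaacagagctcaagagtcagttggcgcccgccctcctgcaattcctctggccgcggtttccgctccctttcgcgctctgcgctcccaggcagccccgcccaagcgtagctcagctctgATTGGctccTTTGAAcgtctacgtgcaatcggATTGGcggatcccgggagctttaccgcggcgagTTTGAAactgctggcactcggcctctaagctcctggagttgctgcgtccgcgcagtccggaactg
Ccnb2: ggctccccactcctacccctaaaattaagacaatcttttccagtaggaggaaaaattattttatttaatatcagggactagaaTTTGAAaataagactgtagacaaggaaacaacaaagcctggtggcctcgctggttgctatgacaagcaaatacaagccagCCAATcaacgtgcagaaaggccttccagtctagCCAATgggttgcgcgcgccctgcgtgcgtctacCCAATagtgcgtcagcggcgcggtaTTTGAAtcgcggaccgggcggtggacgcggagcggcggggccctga
The Cks2 window held 4 matches to CCAAT and 0 to TTTGAA, and the Cks1b window 4 and 2. The Cdk1 and Ccnb2 windows each held 3 and 2. Of the 8 genes with a window, 7 held CCAAT, all but Ccnb3, against 37.4% of 32851 windows of this length, and 3 held TTTGAA (Cdk1, Ccnb2 and Cks1b), against 17.9%. Both motifs together were found in these 3 windows and in 6.95% of all. The matches do not overlap each other in the windows shown. A match is a description of the letters, and the arrays hold no measurement of these promoters.

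Among the 10 genes, Cks2 alone passed the threshold when crude lysate was compared with purified RNA. It was 12.3-fold lower in crude lysate, so 1 of the 10 genes was lower and 0 were higher. Of all genes, 0.667% were lower and 0.341% higher at the same threshold (limma, Benjamini-Hochberg adjusted p under 0.05), together 1.01%. That is 68 genes higher and 133 lower, and after a further quantile normalization it was 75 and 83. The other 9 genes did not pass, with adjusted p-values of 0.386 or more. Between PicoPure and RNeasy Mini 0 of the 10 passed (limma), beside 0.0602% of all genes. At an unadjusted p under 0.05 in that limma fit there were also 0 of the 10, beside 7.98% of all genes. The median difference of the 10 genes was -0.09 between crude lysate and purified RNA and -0.01 between both kits, beside 0.00 and -0.03 over all genes.

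**Figure D1:**
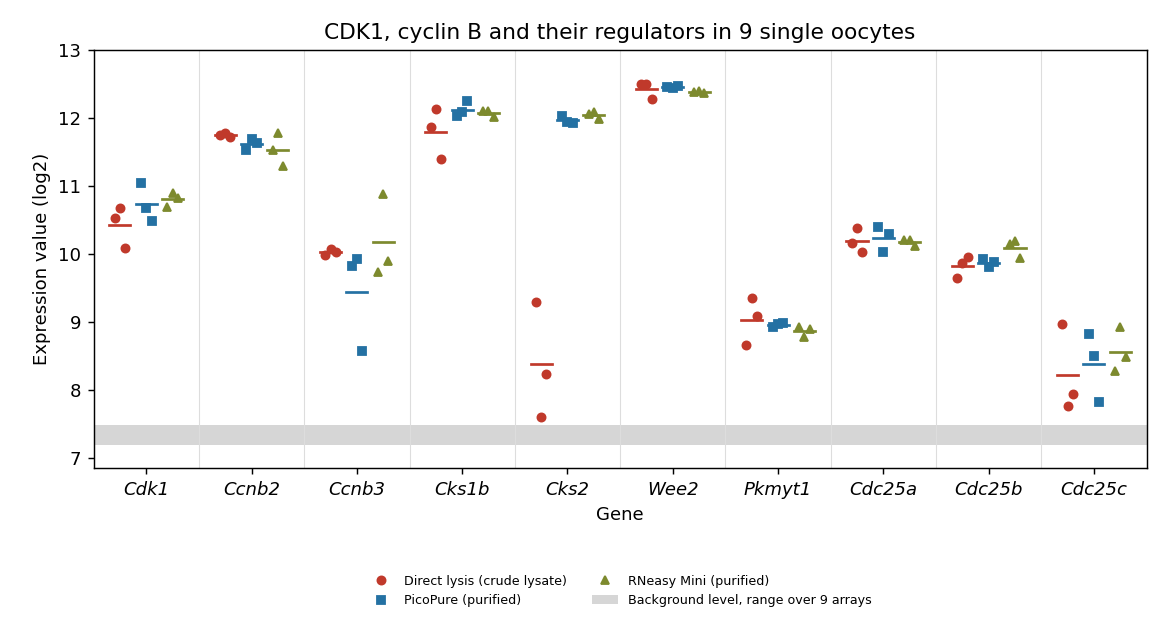
Log2 expression value of each of the 10 genes (horizontal axis) in each of the 9 oocytes (1 point per oocyte), with direct lysis left of PicoPure and RNeasy Mini and short lines for the group means. The grey band spans the background levels of the 9 arrays, 7.19 to 7.48. The 3 direct lysis points of Cks2 lie between 7.61 and 9.29, below all 6 purified points.

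The kinase itself, Cdk1, had values of 10.53, 10.68 and 10.08 in the 3 crude lysates, against 11.05, 10.68 and 10.48 with PicoPure and 10.70, 10.89 and 10.83 with RNeasy Mini. The lowest oocyte was a crude lysate and the highest a PicoPure oocyte, and the groups overlapped. The difference between crude lysate and purified RNA was -0.34 ± 0.16 (SE, 95% interval -0.71 to 0.04, adjusted p = 0.386). Without direct lysis replicate 3, the lowest oocyte, it was -0.16. Between PicoPure and RNeasy Mini Cdk1 differed by -0.07 ± 0.19 (SE).

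Of the B-type cyclins, Ccnb2, which can activate the kinase alongside or in place of cyclin B1 in mouse oocytes, was even across arrays. It had 11.75, 11.78 and 11.72 in crude lysate, against 11.52, 11.69 and 11.63 with PicoPure and 11.53, 11.77 and 11.29 with RNeasy Mini. The crude lysates lay at the upper end, with 1 RNeasy Mini oocyte among them. The difference was 0.18 ± 0.10 (SE, 95% interval -0.06 to 0.42, adjusted p = 0.473).

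Ccnb3, the cyclin that mouse oocytes need to leave metaphase of the first division, varied more between arrays. Each oocyte has 1 array, so spread between cells cannot be told apart from spread of the amplification or the array. It had 9.98, 10.07 and 10.02 in crude lysate, against 9.82, 9.93 and 8.57 with PicoPure and 9.73, 10.88 and 9.89 with RNeasy Mini. Of the 9 oocytes 7 lay between 9.73 and 10.07, while PicoPure replicate 3 was low and RNeasy Mini replicate 2 was high. The spread within preparations was 0.57 (SD, 6 degrees of freedom), larger than in 93.9% of the 8585 genes above background on all arrays, whose median was 0.19. By preparation the SD of Ccnb3 was 0.04 in crude lysate, 0.76 with PicoPure and 0.63 with RNeasy Mini. PicoPure and RNeasy Mini differed by -0.73 ± 0.41 (SE, 95% interval -1.67 to 0.21, adjusted p = 0.72). That difference was -0.29 without PicoPure replicate 3 and -0.37 without RNeasy Mini replicate 2. Crude lysate and purified RNA differed by 0.22 ± 0.35 (SE, adjusted p = 0.811), and by -0.0011 without PicoPure replicate 3.

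Of the genes for the CKS subunits, Cks2 fell in crude lysate. Cks2, without which mouse germ cells of both sexes stall at metaphase of the first division, had 9.29, 7.61 and 8.23 in the 3 crude lysates. In purified RNA it had 12.02, 11.94 and 11.93 with PicoPure and 12.05, 12.08 and 11.98 with RNeasy Mini. The crude lysates were all lower than every purified oocyte by more than 2 log2 units, and direct lysis replicate 2 was closest to its background level of 7.28. The mean of the crude lysates was 8.37 ± 0.85 (SD, n = 3), that of the purified oocytes 12.00 ± 0.06 (SD, n = 6). The difference of -3.63 ± 0.31 (SE) had a 95% interval of -4.34 to -2.92, that is 7.55-fold to 20.2-fold lower, and an adjusted p of 0.00504 (limma). The fit gives all preparations 1 spread, although the crude lysates were more spread than the purified oocytes. Cks2 was the 1 gene of the 10 whose crude and purified arrays did not overlap, beside 8.02% of all genes, and 3.72% with the crude lysates lower.

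By preparation the order for Cks2 was direct lysis, PicoPure, RNeasy Mini from low to high, and PicoPure and RNeasy Mini did not differ beyond their spread (difference -0.08 ± 0.35 SE, 95% interval -0.90 to 0.74, adjusted p = 0.974). Cks2 was lower with direct lysis than with PicoPure, with a difference of -3.59 ± 0.35 (SE, adjusted p = 0.0104) and lower than with RNeasy Mini, with a difference of -3.66 ± 0.35 (SE, adjusted p = 0.0129), beside 0.426% and 0.271% of all genes that were lower at the same threshold. These contrasts share the 3 crude lysates. The call against PicoPure was lost without PicoPure replicate 1 or 2 (adjusted p = 0.0514 and 0.0578), and the call against RNeasy Mini without its replicate 1, 2 or 3 (0.0692, 0.0551 and 0.0564), while the differences stayed between -4.12 and -3.20.

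Its other rows were lower in crude lysate too. The second row had 9.49, 7.46 and 7.68 in the crude lysates, against 11.91 to 12.06 in the 6 purified oocytes. The third had 9.04, 7.52 and 8.49 in the crude lysates, against 11.71 to 11.88 in the purified oocytes. In a fit over all 21789 rows with 1 symbol the 3 rows differed by -3.63, -3.77 and -3.45, with adjusted p-values of 0.00524, 0.0132 and 0.00503. The probe table pairs all 3 rows with the same transcripts, so they may read the same message and do not count as independent measurements.

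Cks1b encodes the other CKS subunit. It had 11.86, 12.14 and 11.40 in crude lysate, against 12.03, 12.08 and 12.25 with PicoPure and 12.11, 12.10 and 12.01 with RNeasy Mini. In crude lysate 2 oocytes were below every purified one and 1 was above all but 1 of them. The difference was -0.30 ± 0.15 (SE, 95% interval -0.64 to 0.04, adjusted p = 0.403), and it was -0.10 without direct lysis replicate 3. The interval of Cks1b does not reach that of Cks2, although the difference between the genes was not itself tested.

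**Figure D2:**
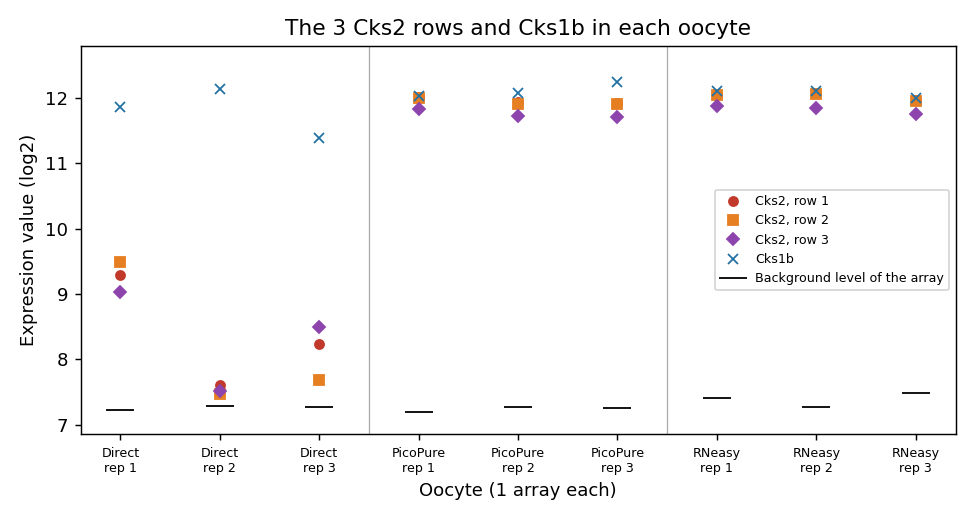
Log2 expression value (vertical axis) of the 3 rows of Cks2 and of Cks1b in each of the 9 oocytes (horizontal axis, direct lysis first), with a dash for each array's background level. The 3 Cks2 rows are low in all 3 direct lysis oocytes, at 7.46 to 9.49, and at 11.71 to 12.08 in the 6 purified ones, while Cks1b lies between 11.40 and 12.25 throughout.

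The summed levels of the marker lists overlapped between the preparations. Summed on the linear scale, the 11 oocyte markers came to 59920 to 63325 in the crude lysates, against 60257 to 63181 in the purified oocytes. Single oocyte markers went both ways. Of the 11, every crude lysate lay above every purified oocyte for 2, Bmp15 and Zp1, and below every one for 1, Oosp1. Crude and purified arrays did not overlap in 8.02% of all genes, and in 3.72% with the crude lysates lower. No gene of the other marker lists was separated in this way. The 11 cumulus and granulosa genes came to 1227 to 1440 in the crude lysates, against 1164 to 1936 in the purified oocytes. The highest sum was that of RNeasy Mini replicate 3, with Inhba at 8.48 and Tnfaip6 at 8.39, and the other 5 purified oocytes came to 1164 to 1298. Without that oocyte the difference of Cks2 between crude lysate and purified RNA was -3.64 (adjusted p = 0.0241). The sums of the blood and immune and of the oviduct genes overlapped likewise. The highest oviduct sum was that of direct lysis replicate 1, at 1155, against 838 to 1004 in the purified oocytes. Krt8 was at 9.13 in that oocyte, against 8.28 to 8.65 in all others. Array medians over all rows were 7.15 to 7.19 for the crude lysates, against 7.12 to 7.24 for the purified oocytes.

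The genes whose profile over the 9 oocytes was most like that of Cks2 were Dcun1d5, Tcl1b4, Ssu72 and Leprot. They were chosen for this on the same 9 arrays, so their low crude lysate values and their order follow in part from the choice. Likeness was the root mean square difference between profiles centred on their means, over 10688 genes whose mean in purified RNA was above background. A low crude lysate value did not remove a gene: Leprot was below background in all 3 crude lysates and Ssu72 in 2, so their distances rest in part on values not above background. It was 0.55 log2 units for Dcun1d5, 0.65 for Tcl1b4, 0.67 for Ssu72 and 0.72 for Leprot, against a spread of Cks2 of 1.86 (SD over 9 oocytes). Dcun1d5, which promotes cullin neddylation, had 8.69, 8.27 and 9.19 in the crude lysates, against 11.45 to 11.66 in the purified oocytes. Like Cks2, the oocyte gene Tcl1b4 and the RNA polymerase II phosphatase gene Ssu72 had their highest crude lysate value in direct lysis replicate 1, at 10.45 and 8.59, while Dcun1d5 and Leprot had it in replicate 3.

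Neither gene for an inhibitory kinase passed the test. Wee2, the oocyte form of WEE1 that holds prophase arrest and is needed again for exit from metaphase II, had 12.50, 12.50 and 12.28 in crude lysate. With PicoPure it had 12.46, 12.44 and 12.47, and with RNeasy Mini 12.39, 12.40 and 12.37. It was the steadiest of the 10 genes, with a range of 0.22 over the 9 oocytes and a spread within preparations of 0.07, with only 8.71% of the genes above background showing less. Crude lysate and purified RNA differed by 0.01 ± 0.06 (SE, 95% interval -0.14 to 0.15, adjusted p = 0.971). All 3 PicoPure values lay above all 3 RNeasy Mini values, by 0.07 ± 0.07 on average (SE, adjusted p = 0.838).

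Pkmyt1, whose product sits on membranes and phosphorylates CDK1 there, had 8.66, 9.34 and 9.08 in crude lysate, against 8.92, 8.96 and 8.98 with PicoPure and 8.92, 8.77 and 8.89 with RNeasy Mini. The crude lysates held both the lowest and the highest oocyte. The difference was 0.12 ± 0.14 (SE, 95% interval -0.20 to 0.43, adjusted p = 0.724).

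The 3 CDC25 phosphatase genes were all read, and none passed the test. Cdc25b, the form that mouse oocytes need to resume meiosis, had 9.64, 9.87 and 9.96 in crude lysate, against 9.92, 9.81 and 9.88 with PicoPure and 10.14, 10.19 and 9.94 with RNeasy Mini. All 3 PicoPure values lay below all 3 RNeasy Mini values. Crude lysate minus purified RNA was -0.16 ± 0.09 (SE, 95% interval -0.37 to 0.05, adjusted p = 0.472). It was -0.0657 without direct lysis replicate 1 and -0.00733 after a further quantile normalization. PicoPure minus RNeasy Mini was -0.22 ± 0.10 (SE, adjusted p = 0.662), and direct lysis minus RNeasy Mini was -0.27 ± 0.10 (SE, unadjusted p = 0.0351 in the limma fit, adjusted p = 0.333). Wee2 and Cdc25b were thus the 2 of 10 genes whose PicoPure and RNeasy Mini oocytes did not overlap, beside 13.9% of all genes.

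Cdc25a had 10.16, 10.38 and 10.03 in crude lysate, against 10.39, 10.02 and 10.29 with PicoPure and 10.20, 10.21 and 10.11 with RNeasy Mini. The groups lay on top of each other, and crude lysate minus purified RNA was -0.01 ± 0.10 (SE, 95% interval -0.26 to 0.23, adjusted p = 0.964). Cdc25c, which mice can do without, came near background in some oocytes and varied between arrays. It had 8.96, 7.77 and 7.94 in crude lysate, against 8.82, 8.50 and 7.82 with PicoPure and 8.28, 8.92 and 8.48 with RNeasy Mini. The lowest oocytes were 2 crude lysates and 1 PicoPure oocyte, the highest value was in a crude lysate, and the groups overlapped. The difference was -0.24 ± 0.32 (SE, 95% interval -0.98 to 0.49, adjusted p = 0.756), and with single arrays left out it ran between -0.61 (without direct lysis replicate 1) and -0.0159 (without direct lysis replicate 2). The spread within preparations, 0.51, exceeded that of 91.4% of the genes above background.

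Between PicoPure and RNeasy Mini the remaining genes differed by less than their standard errors. The differences were 0.08 ± 0.12 for Ccnb2, 0.05 ± 0.17 for Cks1b, 0.09 ± 0.16 for Pkmyt1, 0.06 ± 0.12 for Cdc25a and -0.18 ± 0.37 for Cdc25c (SE).

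Across the 9 genes that did not pass, the 95% interval between crude lysate and purified RNA reached at most a 2.05-fold change, for Ccnb3. It reached a 1.11-fold change for Wee2 and a 1.64-fold change for Cdk1. Differences up to these bounds could not be told from 0 with 3 and 6 oocytes.

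**Figure D3:**
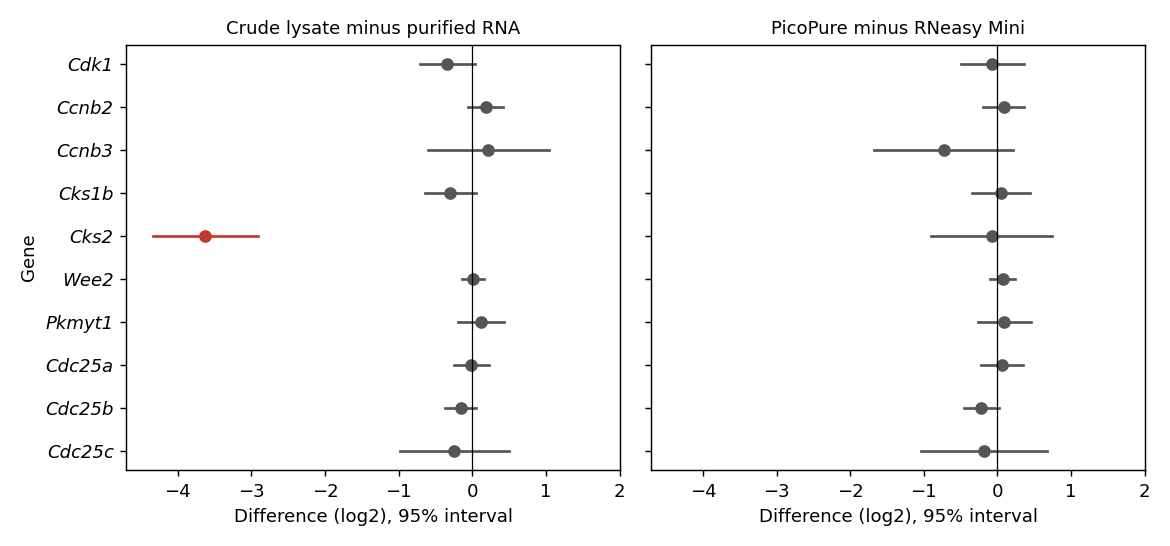
Difference in log2 expression (horizontal axis) for each of the 10 genes, with 95% intervals from limma, for crude lysate minus purified RNA (left) and PicoPure minus RNeasy Mini (right). Red marks an adjusted p under 0.05, reached by Cks2 on the left at -3.63 and by none on the right.

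Other genes of the pathway were taken from 4 lists with 53 genes, of which 46 had a row and 38 lay above background on all 9 arrays. Of all genes 43.1% lay above background on all 9. The lists, like the 10 genes, were chosen with earlier results of these data known. Between crude lysate and purified RNA 2 of the 46 were lower and 0 higher, beside 0.667% and 0.341% of all genes, and the median difference was 0.06, against 0.00 over all genes. Between PicoPure and RNeasy Mini 0 of 46 passed (limma), beside 0.0602% of all genes. At an unadjusted p under 0.05 in that limma fit there were 5 of 46, beside 7.98% of all genes.

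Both genes that were lower in crude lysate act on the anaphase-promoting complex, which destroys cyclin B. Fbxo43, whose product EMI2 keeps that complex inhibited at metaphase II, had 11.40, 11.85 and 11.11 in the crude lysates, against 12.25 to 12.57 in the purified oocytes. It fell by 1.01 ± 0.15 on the log2 scale (SE, adjusted p = 0.0283). Cdc20, an activator of the complex, had 9.30, 8.58 and 9.14 in the crude lysates, against 9.86 to 10.48 in the purified oocytes. It fell by 1.13 ± 0.18 (SE, adjusted p = 0.0325). In both, every crude lysate lay below every purified oocyte, as in 3.72% of all genes. Their calls were lost in 9 and 10 of 16 alternatives, with adjusted p-values up to 0.0832 and 0.0853, while the differences stayed between -1.21 and -0.83 for Fbxo43 and between -1.28 and -0.91 for Cdc20. The other 5 of 7 genes of this list with a row, Mos, Map2k1, Rps6ka3, Fbxo5 and Fzr1, did not pass. Their median with Fbxo43 and Cdc20 was 0.09.

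Of the 10 cyclin, CDK and CDK-activating kinase genes with a row, none passed, while 8 of them exceeded background on every array, as did 43.1% of all genes. Ccna2, cyclin A2, averaged 11.31 ± 0.19 (SD, n = 3) in the crude lysates, against 11.42 ± 0.05 (SD, n = 6) in the purified oocytes. The CDK inhibitor gene Cdkn1c differed by 0.22 ± 0.15 (SE) and Ccnh, the cyclin of the CDK-activating kinase, by -0.23 ± 0.41 (SE). Without direct lysis replicate 2, Cdkn1c differed by 0.0922 and Ccna2 by -0.00311.

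None of 18 genes around the inhibitory phosphorylation passed. Btrc, a ubiquitin ligase adaptor that targets WEE1 for destruction, averaged 11.95 ± 0.06 (SD, n = 3) in the crude lysates, against 11.73 ± 0.11 (SD, n = 6) in the purified oocytes, a difference of 0.23 ± 0.07 (SE, adjusted p = 0.218). Every crude lysate lay above every purified oocyte for Btrc. Crude and purified arrays did not overlap, in either direction, in 8.02% of all genes. Plk1, a kinase that activates CDC25, differed by 0.21 ± 0.09 (SE), and Ywhah, one of the adaptors that bind phosphorylated CDC25, by 0.21 ± 0.09 (SE). Plk1 differed by 0.0963 without direct lysis replicate 1, and Ywhah by 0.0865 with the mean of its rows.

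In the Greatwall branch, which protects CDK1 substrates by blocking the phosphatase PP2A, none of 11 genes passed. Arpp19, a small inhibitor of PP2A that Greatwall phosphorylates, had 10.45, 11.21 and 11.05 in the crude lysates, against 11.34 to 11.73 in the purified oocytes. Its crude lysates were all below the purified oocytes, as in 3.72% of all genes, but the difference of -0.64 ± 0.16 (SE) had an adjusted p of 0.137. The scaffold subunit gene Ppp2r1a differed by -0.39 ± 0.17 (SE) and the B55 subunit gene Ppp2r2b by 0.13 ± 0.07 (SE). Arpp19 differed by -0.42 without direct lysis replicate 1, Ppp2r1a by -0.20 without direct lysis replicate 2, and Ppp2r2b by 0.21 after a further quantile normalization.

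**Figure D4:**
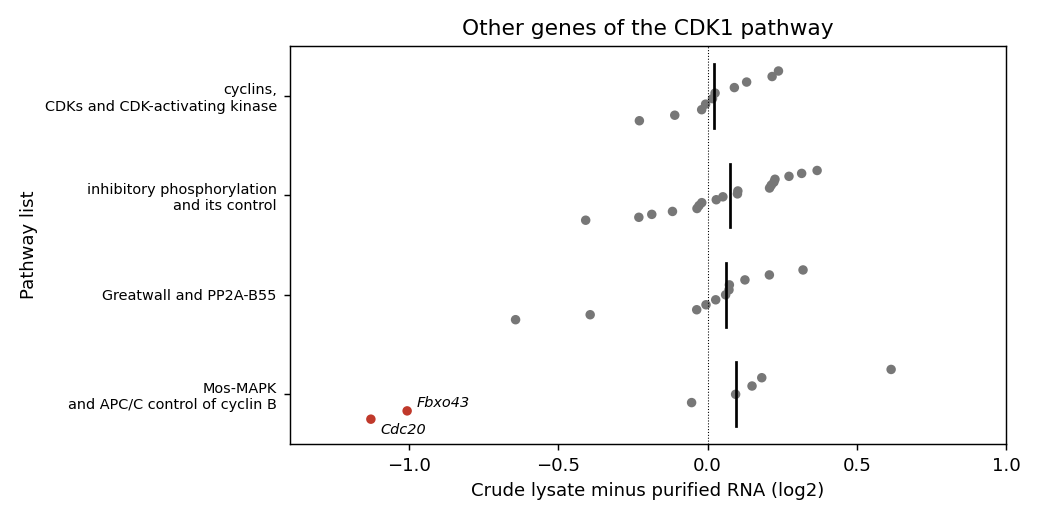
Difference between crude lysate and purified RNA in log2 units (horizontal axis) for the 46 other pathway genes with a row, by list (vertical axis, 1 point per gene, vertical line at the list median). Red marks the 2 genes with an adjusted p under 0.05, Cdc20 and Fbxo43, near -1.13 and -1.01.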

How the data were processed

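RNA from 9 single oocytes, amplified with the NuGEN One-Direct kit per the labels' protocols, was read on Affymetrix Mouse Gene arrays. The deposited values are the authors' normalized log2 values. The log2 scale was read from the values (2.41 to 13.90), since no source used here states it; the genome build is not stated either. Per the submitters' processing notes the tools were GCRMA, GCOS and Affymetrix Expression Console. Background correction was not repeated, and its effect on low values is unknown. Gene names came from the platform annotation, and rows with exactly 1 symbol were kept (21789 of 35556); for a gene with several rows the highest on average was taken. All 19938 genes were fitted with limma 3.58.1 in R 4.3.3 (lmFit, eBayes, 3 groups, two-sided, 6 residual degrees of freedom), with Benjamini-Hochberg adjustment over all genes. No filter on level and no further normalization were applied. Precision is limited by having 3 arrays per preparation. The method was tested on simulated data in which each gene had the same spread in all preparations, which was not so for Cks2. The members and the lists were chosen with earlier results of these data known.

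All 10 genes were named. From each pathway list the rule took genes past the threshold, otherwise the 3 with the smallest p above background on all arrays. It took the 4 genes closest to the most variable member. Alternatives were a further quantile normalization, median centring, values raised to background, a filter (above background on at least 3 arrays), the mean of a gene's rows, eBayes with trend and robust, the replicate number as a block, and each array left out. Replicate numbers were not treated as pairing oocytes. Of 9 same-numbered pairs 1 had a correlation of deviations over 0.1 (range -0.0888 to 0.134). Such correlations, within groups of 3 arrays, cannot settle whether the numbers pair oocytes.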

Additional observations from a re-analysis of the deposited data

How the results depend on the processing

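The difference of Cks2 between crude lysate and purified RNA passed in all 16 alternatives, between -4.08 and -3.24, with adjusted p up to 0.0308. The number of the 10 genes called stayed at 1 there and at 0 between both kits. It was 0 to 1 for direct lysis against PicoPure and against RNeasy with single arrays left out. Some differences that had not passed changed sign, and none of them passed. With a further quantile normalization Cdc25a was 0.13 in crude lysate against purified RNA and -0.0255 in PicoPure against RNeasy, where Pkmyt1 was -0.0452. With median centring Wee2 was -0.0133 in crude lysate against purified RNA. With single arrays left out, the ranges for crude lysate against purified RNA were -0.0011 to 0.40 (Ccnb3), -0.73 to 0.19 (Ccnh), -0.11 to 0.0669 (Cdc25a), -0.0425 to 0.30 (Pkmyt1) and -0.0298 to 0.0791 (Wee2). For PicoPure against RNeasy they were -0.0402 to 0.20 (Ccnb2), -0.0175 to 0.17 (Cdc25a), -0.40 to 0.10 (Cdc25c), -0.22 to 0.0595 (Cdk1) and -0.0163 to 0.0915 (Cks1b). Of 528 values for single genes 487 kept direction and side of the threshold.

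Over all genes the count for crude lysate against purified RNA was 201, and 24 to 232 with single arrays left out. For PicoPure against RNeasy it was 12, and 0 to 15. For direct lysis it was 119 against PicoPure, and 14 to 123, and 87 against RNeasy, and 3 to 95. With a further quantile normalization direct lysis against PicoPure gave 73. With trend and robust PicoPure against RNeasy gave 0, with 1595 at an unadjusted p under 0.05. Among called genes 33.8% were higher in crude lysate than in purified RNA, and 47.5% with a further quantile normalization. The replicate numbers were not used as a pairing in the main fit, although 6 of 9 arrays correlated best with their own number. Whether they pair oocytes is not known. With them as a block the counts were 25, 0 (1549 at an unadjusted p under 0.05), 17 and 15 in the order above, and Cks2 kept its call.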
